A study of Bos taurus with 12 samples.

Results

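The pregnancy-associated glycoproteins (PAG), the trophoblast Kunitz domain proteins (TKDP) and the secreted Ly-6 protein SSLP1 are secreted products of the ruminant trophoblast, the outer cell layer of the embryo that later forms the placenta. Their genes were followed on Affymetrix bovine arrays through the days before the embryo elongates. All probe sets that carried a single gene symbol made of PAG or TKDP and a number, or the symbol SSLP1, were taken. This rule by name uses no measured value, but it was chosen with earlier results of these data known. The probe sets taken were 26 of the 24016 tested, of which 21 belonged to 19 PAG genes, 4 to 3 TKDP genes and 1 to SSLP1. All 26 matched a gene of the RefSeq cattle annotation by its gene identifier.

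The study crossed 2 stages with 2 origins, with 3 arrays in each of 4 groups. Day 13 in vitro conceptuses came from blastocysts made by in vitro fertilization that had been placed in synchronized recipient heifers, 10 to a recipient, and Day 13 in vivo conceptuses came from blastocysts of superovulated donors that were transferred in the same way. Day 7 in vitro and Day 7 in vivo blastocysts were frozen at Day 7 without transfer. Each Day 13 array held a pool of 5 conceptuses and each Day 7 array a pool of 25 blastocysts, so the spread between arrays is a spread between pools, and "in vitro" at Day 13 refers to the first 7 days alone. The titles call the arrays biological replicates. Strain, donors and the recipients behind each pool are not given in the labels.

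PAG proteins belong to the aspartic proteinase family, and many of them carry changes around the catalytic site that make enzyme activity unlikely. By sequence they form an ancient group, made broadly across the trophoblast, and a modern group, made mainly by the binucleate cells that form later and fuse with the uterine lining. PAG released by these cells is measured in maternal blood and milk as a test for pregnancy in cattle. TKDP proteins carry a Kunitz domain, the fold of the pancreatic trypsin inhibitor, and are known from ruminant trophoblast around the time of maternal recognition of pregnancy. SSLP1, also listed under the name SOLD1, is a secreted member of the Ly-6 domain family made by bovine trophoblast.

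Values are log2 probe set intensities, on which 1 unit is a doubling of intensity. The lowest value found was 2.23. Some probe sets repeated a higher value on many arrays, such as PAG6 at 3.03 on 10 of 12. A background of 3.39 was set at the 99th percentile of 48 negative control probe sets. By this measure 41.3% to 42.0% of probe sets lay above background on each array. Trophoblast markers (KRT8, KRT18, KRT19, ASCL2, ELF5 and IFNT2, 6 of 10 listed) were measured in every group, with only ELF5 at background in both Day 7 groups. Their summed linear intensities were 34055 to 50326 in Day 13 in vitro arrays, 25012 to 48319 in Day 13 in vivo, 22612 to 35007 in Day 7 in vitro and 16190 to 31988 in Day 7 in vivo. Markers of the recipient's uterine epithelium were low: SERPINA14, PGR, LTF and PAEP stayed at background in all groups, and 6 of 7 listed markers summed to at most 42.8. The others were OVGP1 and MUC1. OVGP1 passed background by a little on some arrays of each group, with a highest value of 3.86 on Day 7 in vivo replicate 1. MUC1 passed it on Day 13 in vivo replicate 3 alone (3.71). The poly-A spike-ins, control RNAs mixed in before labelling, stood apart on the Day 13 in vitro arrays, with means of 9.38, 10.61 and 13.06 on replicates 1, 2 and 3, against 14.3 to 14.6 in Day 13 in vivo arrays. The Day 7 groups had spike-in means of 13.4 to 14.6 in vitro and 14.2 to 14.98 in vivo. For GAPDH, the 3' probe set minus the 5' one, which grows where labelled copies are shorter, gave 2.53, 2.61 and 4.17 on the Day 13 in vitro arrays and 4.62, 2.85 and 4.57 on the Day 13 in vivo arrays. It was at most 4.19 on the Day 7 in vitro arrays and 5.58 to 5.65 on the Day 7 in vivo arrays, so it was higher on every Day 7 in vivo array than on any other.

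Only a few of these genes gave a signal at either stage. Of the 26 probe sets, 18 (16 genes) never rose above background on any of the 12 arrays, and 10 of them held the single value 2.23 on every array. The highest value among the 18 was 3.29, that of PAG9 on replicate 1 of the Day 13 in vivo group. The remaining 8 probe sets (7 genes) exceeded background on at least 3 arrays, and 5 of these did so on all 12. They were both TKDP1 probe sets, TKDP4, SSLP1, PAG2, PAG8, PAG11 and PAG17. TKDP2, the remaining TKDP gene on the array, was at 2.23 throughout.

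**Figure D1:**
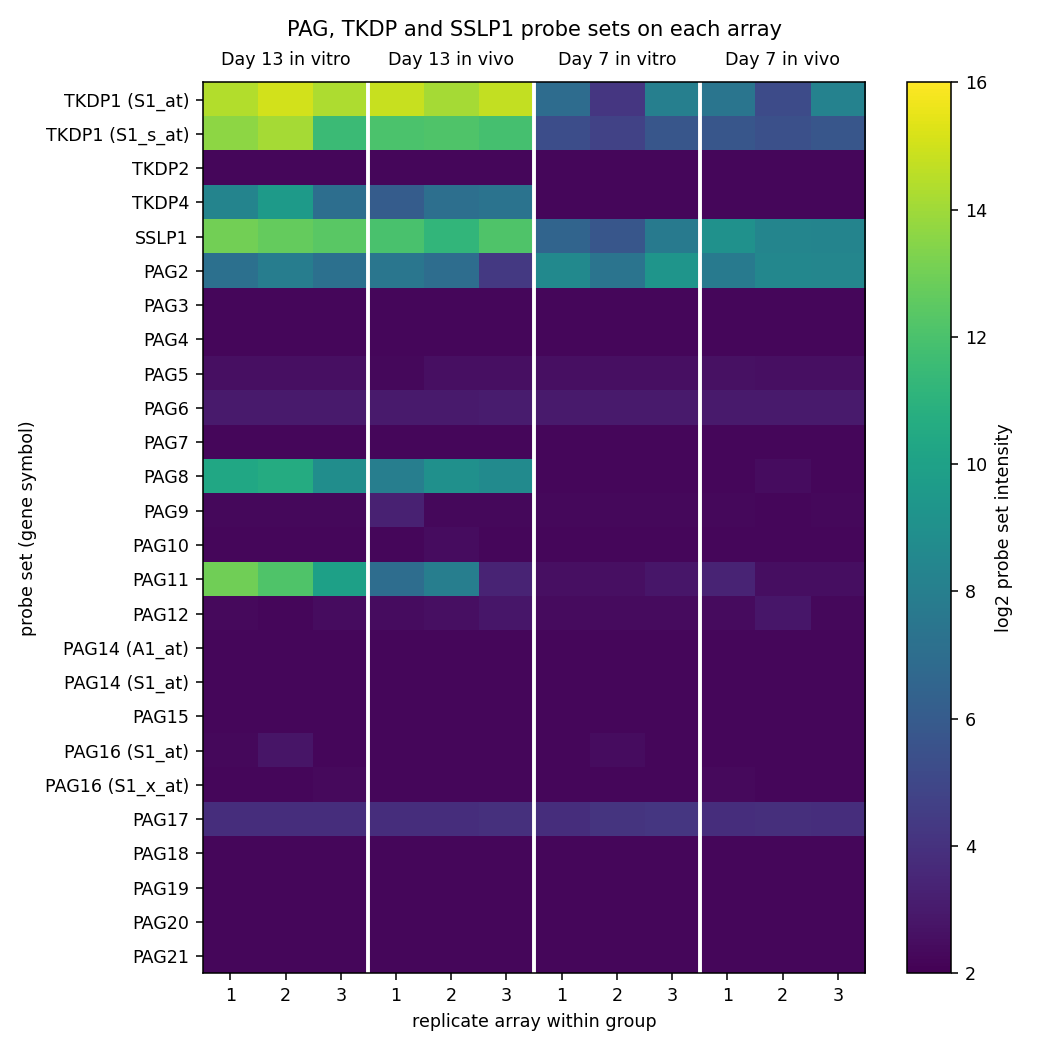
Heat map of the log2 intensity of all 26 PAG, TKDP and SSLP1 probe sets (rows) on the 12 arrays (columns, in 4 groups of 3 replicates). TKDP1, TKDP4, SSLP1, PAG8 and PAG11 are bright in Day 13 columns, PAG2 is present in every column, and most PAG rows are dark at both stages.

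The PAG genes with a signal were mostly of the ancient group. Of its 5 genes on the array, PAG2, PAG8 and PAG11 exceeded background, while PAG10 reached at most 2.48 and PAG12 at most 2.86. Of 14 modern genes with 16 probe sets, 15 never left background, 9 of them at a single value. The exception was PAG17, which read 3.86, 3.86 and 3.86 in Day 13 in vitro, 3.83, 3.86 and 3.95 in Day 13 in vivo arrays, 3.86, 4.13 and 4.23 in Day 7 in vitro arrays and 3.86, 3.87 and 3.86 in Day 7 in vivo arrays. It held the same value of 3.86 on 6 of 12 arrays and spanned only 3.83 to 4.23, so its place above the background comes with almost no variation. The division into ancient and modern genes is background knowledge, applied here with the values already known, and no test was made of it. PAG1, the classic binucleate cell product, is annotated under the symbol LOC281964 and so falls outside the rule by name; its probe set read 2.23 on all 12 arrays. Of 5 other binucleate cell markers measured, the placental lactogen CSH2, the prolactin-related PRP1 and the transcription factor GCM1 were at background in all groups. The steroid enzyme gene HSD3B1 was above it in each, and CYP11A1, another steroid enzyme gene, exceeded it on Day 13 in vivo replicate 2 (4.25) and Day 7 in vitro replicate 3 (3.43).

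**Figure D2:**
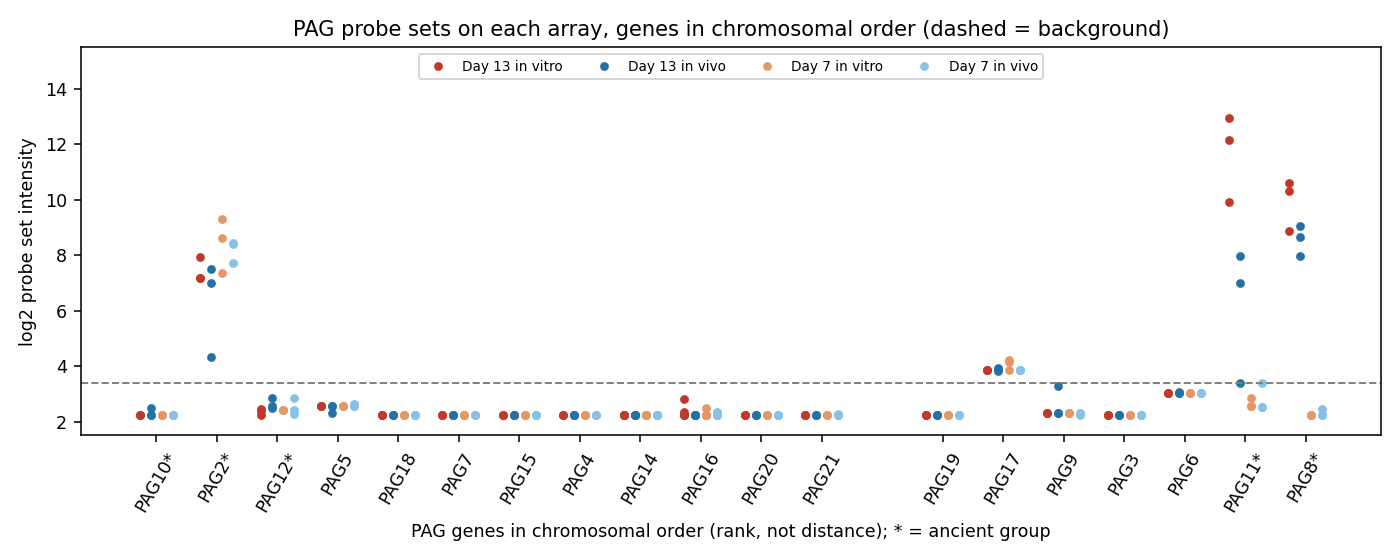
Log2 intensity of each PAG probe set on each of the 12 arrays, with genes along the horizontal axis in their order on the chromosome (rank only) and colours for the 4 groups; asterisks mark the ancient group and the gap is the place of LOC281964, which is not drawn. Points above the dashed background line of 3.39 belong to PAG2 near one end of the series, PAG11 and PAG8 at the other, and PAG17.

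The order of genes was read from the RefSeq annotation (assembly ARS-UCD2.0), whose coordinates are not used because the files name no build. All 19 PAG genes and LOC281964 lie on 1 chromosome. PAG10, PAG2 and PAG12 come first, the modern genes follow, and PAG11 and PAG8 come last, so the 5 ancient genes stand at both ends of the series. PAG10 and PAG2 have 0 annotated genes between them, and yet PAG10 stayed at background on all arrays where PAG2 was measured on all. PAG11 and PAG8, with 9 annotated genes between them, were both bright at Day 13. SSLP1 lies on the same chromosome, ahead of the PAG genes. TKDP1, TKDP4 and TKDP2 lie in that order on another chromosome.

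Day 13 was compared with Day 7 within each origin to ask which of these products appeared or increased as the blastocyst became a conceptus. TKDP1, TKDP4, SSLP1 and PAG8 rose in embryos of both origins, by 9.02-fold or more, and PAG11 rose in embryos of in vitro origin. No PAG, TKDP or SSLP1 probe set was called lower at Day 13, although PAG2 had a difference of -1.92 in vivo that did not pass the test. In the in vitro groups 6 of the 26 probe sets rose, where 3.55% of all probe sets tested rose, 3.96% fell and 7.51% changed in either direction. In the in vivo groups 5 of 26 rose, where 1.7% of all rose, 2.09% fell and 3.79% changed. These calls are Benjamini-Hochberg adjusted p below 0.05 over all 24016 probe sets in a limma fit, and the p-values measure the spread between pools. The median log2 difference over the 26 was 0 in each comparison, as it was over all probe sets, since most of the 26 sat at background. RNA was taken from whole embryos, so a larger share of trophoblast cells and more RNA per cell cannot be told apart.

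TKDP1, a Kunitz protein gene seen at both stages, was measured by a pair of probe sets. The first read 14.40, 15.04 and 14.27 in Day 13 in vitro and 14.81, 14.11 and 14.72 in Day 13 in vivo arrays. At Day 7 it read 6.94, 4.23 and 8.04 in vitro and 7.42, 5.20 and 8.18 in vivo. All 6 Day 13 arrays thus lay within 1 unit of each other, far above every Day 7 array, while the Day 7 arrays of each origin were spread more widely, lowest on replicate 2 in both. The difference was 8.17 ± 1.02 in vitro (SE, adjusted p = 0.00245), a 288-fold rise, and 7.61 ± 1.02 in vivo (adjusted p = 0.00508), a 196-fold rise. Adjusted for the poly-A spike-in mean, the in vitro call was lost at adjusted p = 0.0560, and the in vivo call was lost with the 3' to 5' difference of GAPDH as a covariate (0.0664) or with only the groups compared in the fit (0.0579). Both covariates follow the groups: the spike-in mean was lowest on the Day 13 in vitro arrays and the GAPDH difference highest on the Day 7 in vivo arrays. Each adjustment can therefore take up part of the day difference itself.

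The second TKDP1 probe set is of the _s_at type, which can match more than 1 transcript. It read 13.61, 14.12 and 11.52 in Day 13 in vitro arrays and 12.05, 12.15 and 11.89 in Day 13 in vivo arrays, against 5.31, 4.78 and 5.77 in Day 7 in vitro and 5.77, 5.39 and 5.77 in Day 7 in vivo arrays. It showed the same step between the stages, with no overlap, and less spread than the first probe set at Day 7. However, it held the identical value of 5.77 on 3 arrays, all of Day 7, with the other Day 7 arrays lower. Its small Day 7 spread therefore comes in part from a repeated value, and the size of its rise may be limited by it. The rise of this probe set was 7.80 ± 0.59 in vitro (SE, adjusted p = 0.000197) and 6.39 ± 0.59 in vivo (adjusted p = 0.000759), and it passed the threshold under all 23 alternative settings in each origin.

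TKDP4 was at background at Day 7 and above it at Day 13. It read 8.33, 9.64 and 7.05 in Day 13 in vitro and 6.09, 7.11 and 7.33 in Day 13 in vivo arrays, and between 2.23 and 2.26 on all 6 Day 7 arrays. Because both Day 7 groups lay wholly at background, the fold is a lower bound computed against it. TKDP4 was at least 30.9-fold higher at Day 13 in vitro (adjusted p = 0.000654) and at least 10.96-fold higher in vivo (adjusted p = 0.00371). The in vitro call was lost with the spike-in covariate (adjusted p = 0.0552). Together with TKDP1 and TKDP2, it gave 3 neighbouring TKDP genes with different patterns: above background at both stages with a large step, above it at Day 13 but not Day 7, and at background throughout.

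SSLP1 was measured on all 12 arrays. It read 13.01, 12.68 and 12.43 in Day 13 in vitro and 11.98, 11.19 and 12.12 in Day 13 in vivo arrays, against 6.53, 5.77 and 7.78 in Day 7 in vitro and 9.08, 8.40 and 8.30 in Day 7 in vivo arrays. The 4 groups formed 4 separate ranges, with Day 13 in vitro at the top and Day 7 in vitro at the bottom. The rise was 6.01 ± 0.50 in vitro (SE, adjusted p = 0.000293; 64.6-fold) and 3.17 ± 0.50 in vivo (adjusted p = 0.0106; 9.02-fold). The in vivo call was lost with only the groups compared in the fit (adjusted p = 0.0568) and with the GAPDH covariate (0.0906).

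PAG8, an ancient PAG, was at background on all 6 Day 7 arrays, where it read 2.25, 2.25 and 2.25 in vitro and 2.25, 2.45 and 2.24 in vivo. At Day 13 it read 10.33, 10.61 and 8.89 in vitro and 7.96, 9.05 and 8.67 in vivo. Every Day 13 array stood clear of every Day 7 array. PAG8 was at least 93.7-fold higher at Day 13 in vitro (adjusted p = 3.85e-05) and at least 36.0-fold higher in vivo (adjusted p = 0.000158), and both calls held under all 23 alternatives.

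PAG11, another ancient PAG, varied most among the Day 13 arrays. It read 12.94, 12.16 and 9.94 in Day 13 in vitro arrays, 7.01, 7.98 and 3.39 in Day 13 in vivo arrays, 2.55, 2.55 and 2.85 in Day 7 in vitro arrays and 3.39, 2.54 and 2.54 in Day 7 in vivo arrays. All Day 7 arrays were at background, and so was replicate 3 of Day 13 in vivo, which held the identical value to replicate 1 of Day 7 in vivo, just under the background line. The stages were therefore separate in vitro and met at 1 value in vivo. PAG11 was at least 313-fold higher at Day 13 in vitro (adjusted p = 0.00292). In vivo the log2 difference of the deposited values, 3.30 ± 1.17 (SE), did not pass the test (adjusted p = 0.223), and it was 0.95 with the GAPDH covariate (adjusted p = 0.876). The in vivo result rests on the single array at background: without replicate 3 of Day 13 in vivo the difference was 4.67 (adjusted p = 0.0247; range over the alternatives 0.0247 to 0.876). The in vitro call was lost with the spike-in covariate (7.30, adjusted p = 0.156) and without both Day 13 in vitro arrays of lowest spike-in level (7.29, adjusted p = 0.0753).

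PAG2, also of the ancient group, differed from the others in being present in the blastocyst. It read 7.19, 7.92 and 7.19 in Day 13 in vitro and 7.51, 7.01 and 4.34 in Day 13 in vivo arrays, against 8.63, 7.36 and 9.31 in Day 7 in vitro and 7.74, 8.46 and 8.42 in Day 7 in vivo arrays. The groups overlapped in vitro and did not in vivo, where replicate 3 of Day 13 was far below the rest. The Day 13 minus Day 7 difference was -0.997 ± 0.82 in vitro (SE, adjusted p = 0.68) and -1.92 ± 0.82 in vivo (adjusted p = 0.339), and neither passed under any alternative. Without replicate 3 of Day 13 in vivo the in vivo difference was -0.95. The 95% intervals, -2.87 to 0.88 in vitro and -3.80 to -0.05 in vivo, leave room for anything from a small change to a fall of several fold. That array was thus the lowest of the Day 13 arrays for both PAG2 and PAG11, but not for PAG8, TKDP4, SSLP1 or TKDP1.

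**Figure D3:**
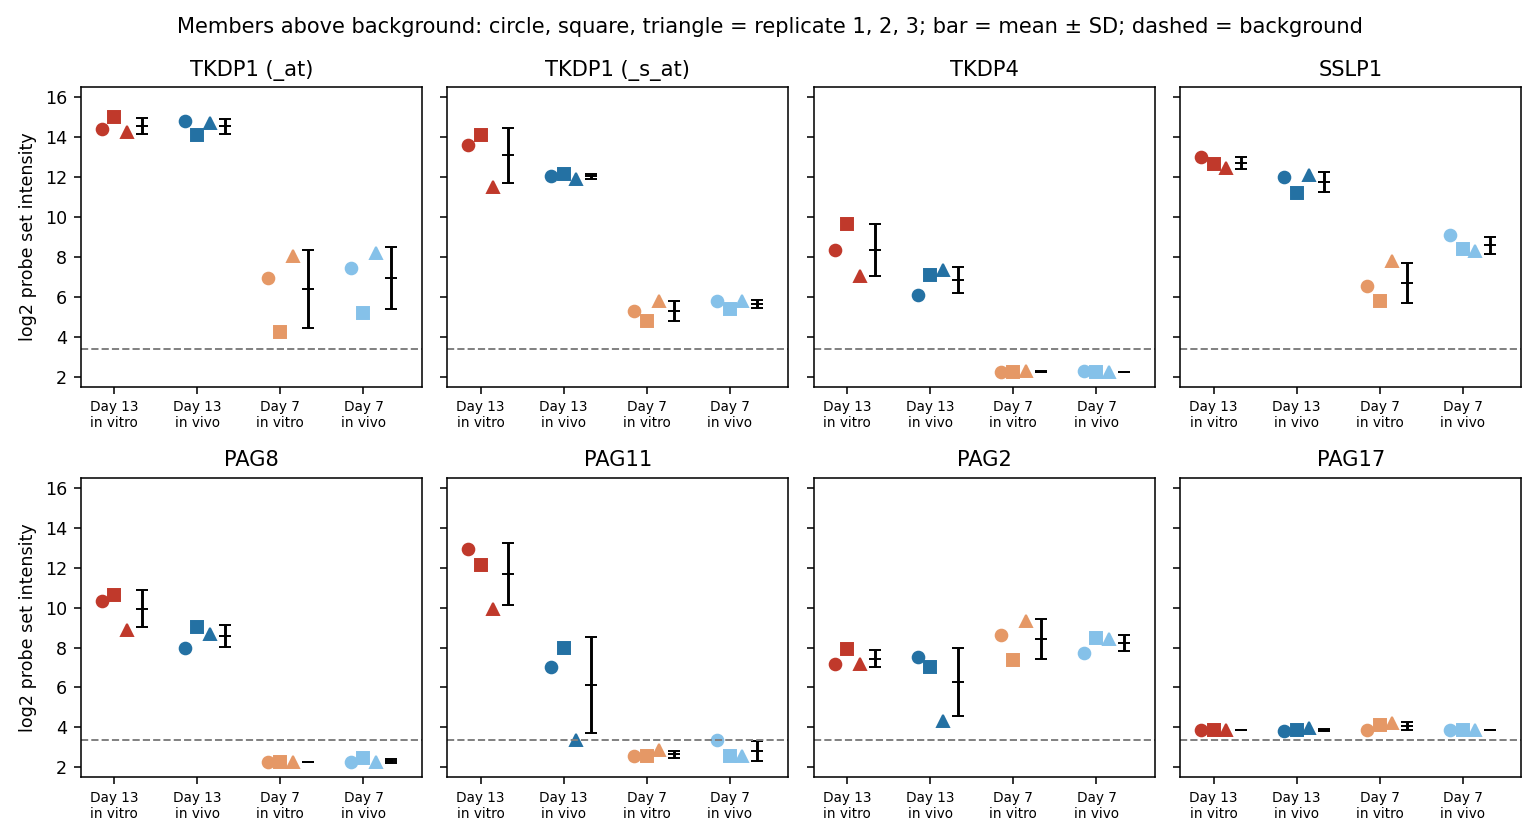
Log2 intensity of the 8 probe sets above background, 1 panel each, on the 3 arrays of the 4 groups (circle, square and triangle for replicates 1, 2 and 3), with mean ± SD and the background of 3.39 as a dashed line. The Day 13 points of TKDP1, TKDP4, SSLP1 and PAG8 lie above all Day 7 points, PAG2 is above background in all groups, with 1 Day 13 in vivo point at 4.34, and 1 Day 13 in vivo point of PAG11 sits at background.

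In vitro and in vivo embryos were then compared at each stage, to ask whether these products differed by origin. Origin takes in the way of fertilization and the donors as well as culture, and these cannot be told apart. At Day 7, 0 of the 26 probe sets passed the test in limma, where 0.208% of all probe sets did, and 2 had an unadjusted p below 0.05. PAG8, PAG11 and TKDP4 were at background in both groups. SSLP1 averaged 6.69 ± 1.01 in Day 7 in vitro and 8.59 ± 0.43 in Day 7 in vivo arrays (SD, n = 3 each), with every in vitro array below every in vivo array. The difference was -1.90 ± 0.50 (SE, adjusted p = 0.363). The other measured genes had smaller differences with overlapping groups: 0.22 ± 0.82 for PAG2, -0.53 ± 1.02 and -0.36 ± 0.59 for the TKDP1 probe sets and 0.21 ± 0.08 for PAG17 (adjusted p at least 0.671).

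At Day 13, 0 of the 26 passed, where 1.2% of all probe sets did, and 3 had an unadjusted p below 0.05. On the deposited values PAG11 had the largest log2 difference in the direction of higher in vitro among all 24016 probe sets in this comparison. It averaged 11.68 ± 1.56 in Day 13 in vitro and 6.12 ± 2.42 in Day 13 in vivo arrays (SD, n = 3 each). The lowest in vitro array, at 9.94, was above the highest in vivo array, at 7.98. The difference was 5.56 ± 1.17 (SE), 47.1-fold, with a 95% interval of 2.89 to 8.22, and limma gave an adjusted p = 0.0670. It passed the threshold when arrays were centred on their medians (adjusted p = 0.0468) or on ribosomal protein genes (0.0132), when only probe sets above background were tested (0.0122), without Day 13 in vitro replicate 3 (0.0170) and without Day 13 in vivo replicate 2 (0.0474). It was 4.19 without Day 13 in vivo replicate 3, the array at background, and 4.22 with the GAPDH covariate (adjusted p = 0.0638 and 0.134). Over all 23 alternatives its adjusted p ran from 0.0122 to 1 and the difference from 3.59 to 6.48.

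The other measured genes had smaller differences at Day 13. PAG8 differed by 1.38 ± 0.43 (SE, adjusted p = 0.176), TKDP4 by 1.50 ± 0.58 (adjusted p = 0.249) and the second TKDP1 probe set by 1.06 ± 0.59 (adjusted p = 0.477). Their groups overlapped. SSLP1 differed by 0.94 ± 0.50 (adjusted p = 0.430) with no overlap, and PAG2 by 1.15 ± 0.82 (adjusted p = 0.551). The first TKDP1 probe set differed by 0.02 ± 1.02 (adjusted p = 1), with an interval of -2.32 to 2.36. It averaged 14.57 ± 0.41 in Day 13 in vitro and 14.55 ± 0.38 in Day 13 in vivo arrays (SD, n = 3 each), so the pair of probe sets for this gene gave different sizes of difference, and neither passed the test.

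**Figure D4:**
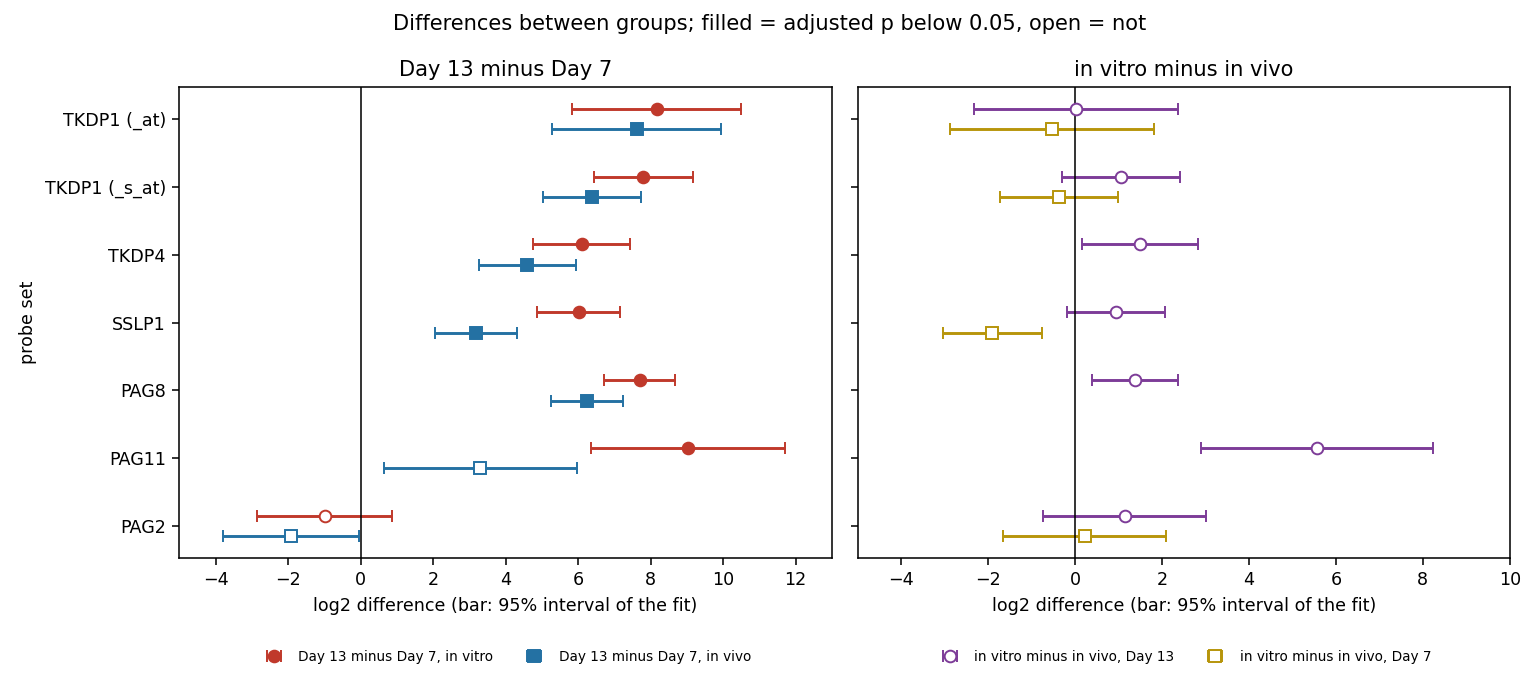
Log2 differences with 95% intervals for the 7 probe sets that varied, Day 13 minus Day 7 on the left (in vitro and in vivo) and in vitro minus in vivo on the right (Day 13 and Day 7); filled symbols mark adjusted p below 0.05, and Day 7 comparisons with both groups at background are left out. All positive differences on the left but that of PAG11 in vivo are filled, and no symbol on the right is filled, with PAG11 at Day 13 farthest from 0 at 5.56.

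Replicates 1 and 2 of Day 13 in vitro, the arrays with the lowest spike-in means, were the highest pair of the 6 Day 13 arrays for PAG11, PAG8, SSLP1, TKDP4 and the second TKDP1 probe set. For PAG8 and TKDP4, replicate 3 of that group, with a spike-in mean of 13.06, lay among the in vivo arrays. Adjusted for the spike-in mean, the Day 13 in vitro minus in vivo difference was 3.59 for PAG11, 0.04 for PAG8, 0.12 for TKDP4 and -0.54 for the second TKDP1 probe set (limma adjusted p = 1 for each). It was 0.84 for SSLP1, against 0.94 without the adjustment, and 1.16 for the first TKDP1 probe set, against 0.02 (adjusted p = 1 for both). With both arrays left out it was 3.81 for PAG11 (adjusted p = 0.851), 0.33 for PAG8, 0.20 for TKDP4, 0.67 for SSLP1, -0.51 for the second TKDP1 probe set and -0.27 for the first. Without replicate 3 instead, the differences of PAG11 (6.43), PAG8 (1.91), TKDP4 (2.14) and the second TKDP1 probe set (1.84) all passed, with adjusted p of 0.0170, 0.0057, 0.0261 and 0.0087. Why replicates 1 and 2 differed from replicate 3 was not tested. Summed hypoblast markers also differed between these groups, at 5256 to 8611 in Day 13 in vitro and 14204 to 31214 in Day 13 in vivo arrays (8 of 9 listed, linear intensity, with HNF4A, TTR and AFP at background in both). So did summed epiblast markers, at 870 to 1278 in Day 13 in vitro and 2376 to 3909 in Day 13 in vivo arrays (3 of 6 listed, with SOX2 at background in both). A linear sum is carried by its brightest genes. APOA1 averaged 11.49 in Day 13 in vitro and 13.22 in Day 13 in vivo arrays, GATA6 11.75 and 12.22, and CRIPTO 10.03 and 11.32. By limma, 0 of the 8 hypoblast and 0 of the 3 epiblast markers were called in this comparison, where 1.2% of all probe sets were. The part of these cell types in the result was not tested.

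**Figure D5:**
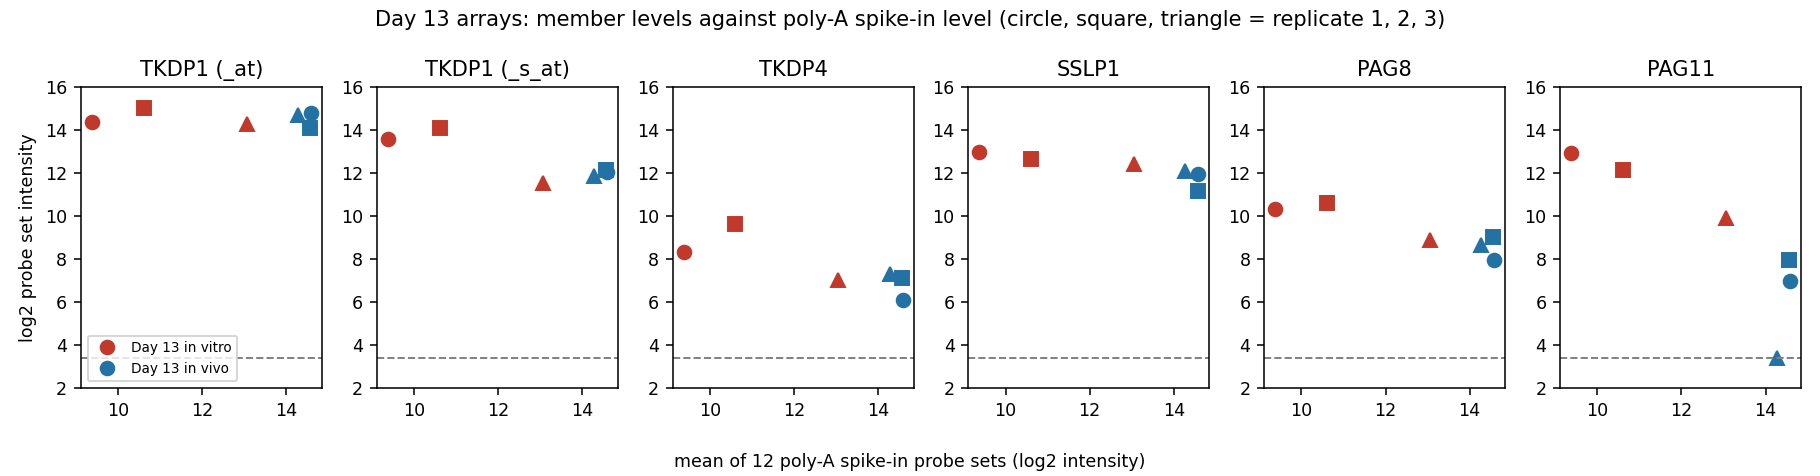
Log2 intensity of 6 probe sets on the 6 Day 13 arrays (vertical axis) against the mean of 12 poly-A spike-in probe sets (horizontal axis, log2 intensity), in vitro in red and in vivo in blue, with symbols for replicates. The in vitro arrays with spike-in means of 9.38 and 10.61 are the highest pair for TKDP4, PAG8, PAG11, SSLP1 and the second TKDP1 probe set, and TKDP1 (_at) lies between 14.11 and 15.04 on all 6.

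Whether the step from Day 7 to Day 13 differed by origin was tested directly. For the difference of the day effect, 0 of the 26 probe sets passed, where 0.4% of all did, and 3 had an unadjusted p below 0.05. The step of SSLP1 was larger in vitro by 2.84 ± 0.70 (SE, adjusted p = 0.187). Its in vitro arrays were the higher ones at Day 13 and the lower ones at Day 7. Its adjusted p over 22 alternatives ran from 0.0508 to 0.788. PAG11 had a difference of 5.73 ± 1.65 (adjusted p = 0.252), or 5.56 ± 1.63 with Day 7 groups set to the background (adjusted p = 0.301). PAG8 (1.45 ± 0.61), TKDP4 (1.49 ± 0.82), PAG2 (0.92 ± 1.16) and the TKDP1 probe sets (0.55 ± 1.45 and 1.41 ± 0.84) had adjusted p of at least 0.473.

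Genes with the most similar pattern over the 12 arrays were sought among 5751 genes above background, using the brightest probe set of each gene. These correlations are descriptions: the 12 points fall into 4 groups, so each r holds the group differences as well as the spread within groups, and all arrays share 1 normalization. PAG8 and TKDP4, on different chromosomes, were very similar to each other (r = 0.992, ranked 1 for TKDP4 and 3 for PAG8). Both had PDZK1, a scaffold of membrane transporters, among their nearest genes (r = 0.993 for PAG8 and 0.976 for TKDP4). DNASE1L3, a secreted DNase, was near PAG8 (r = 0.988) and TKDP1 (r = 0.964), and MYC, the growth regulator, was near TKDP4 (r = 0.979).

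TKDP1 was also near YBX3, a cold shock domain protein, and JAM2, a junction adhesion molecule (r = 0.966 and 0.963). SSLP1 was near ANKH, a pyrophosphate transporter (r = 0.957), ABRACL and SWAP70 (r = 0.945 each), and second in its full ranking stood TKDP1 (r = 0.947). PAG11 had a different company: ABCG2, a drug efflux transporter, ADAMTS1, a secreted metalloproteinase, and FETUB, a protease inhibitor of the fetuin family (r = 0.961, 0.960 and 0.958), with TKDP1 at r = 0.778. PAG2 ran against the rest, with r of -0.56 to -0.17 to TKDP1, SSLP1, PAG8, PAG11 and TKDP4, and was nearest to TCTA, MIGA2 and GTF2I (r = 0.894, 0.887 and 0.882). The flat PAG17 was nearest to PCK2, IQSEC1 and BICDL2 (r = 0.850, 0.825 and 0.812).

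Other secreted trophoblast products included genes that fell. Of 43 listed, 34 were measured and 18 exceeded background on at least 3 arrays. In vitro, 4 of the 34 rose and 2 fell at Day 13, and in vivo 4 rose and 0 fell, with a median log2 difference of 0 in vitro and 0.01 in vivo against 0 over all probe sets. Of all probe sets 3.55% rose and 3.96% fell in vitro, and 1.7% rose and 2.09% fell in vivo, so the falls were near the general share. DNASE1L3 read 13.68, 13.45 and 13.62 in Day 13 in vitro and 12.47, 12.52 and 11.86 in Day 13 in vivo arrays, and 2.39 to 3.69 over the 6 Day 7 arrays. CGA, the common alpha subunit of the glycoprotein hormones, rose by 5.58 ± 0.61 in vitro (SE, adjusted p = 0.00127) and by 5.50 ± 0.61 in vivo (adjusted p = 0.00201). FST, the activin binding protein follistatin, was at least 26.4-fold higher in vitro and at least 79.4-fold higher in vivo.

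The falls were those of metalloproteinase inhibitors. TIMP2 fell by 5.24 on the log2 scale in vitro (adjusted p = 0.000700) and was also lower in vitro than in vivo at Day 13 (-3.82 ± 0.51 SE, adjusted p = 0.0128), and its day effect differed between the origins (-5.02 ± 0.72, adjusted p = 0.0324). TIMP1 fell by 4.79 in vitro (adjusted p = 0.0157), and MMP2, a metalloproteinase, was at least 1.49-fold higher at Day 13 in vivo. AREG, an epidermal growth factor receptor ligand, read 7.99, 5.38 and 6.72 in Day 13 in vitro arrays and at most 2.42 on all others, so it was at least 9.88-fold higher in vitro at Day 13, against Day 7 in vitro and against Day 13 in vivo (adjusted p = 0.00178 and 0.00795). IFNT2, an interferon tau gene whose product signals pregnancy to the mother, read 13.80, 11.95 and 10.89 in Day 13 in vitro and 8.41, 8.99 and 9.98 in Day 13 in vivo arrays, against 10.05, 9.82 and 10.90 in Day 7 in vitro and 9.59, 9.24 and 11.40 in Day 7 in vivo arrays. Like PAG11, it was highest on Day 13 in vitro replicate 1 and had separate ranges by origin at Day 13, but it was present at Day 7 and passed none of the 5 limma tests (adjusted p at least 0.130).

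Of 25 listed trophoblast transcription factors, 16 were measured and 12 exceeded background on at least 3 arrays. In vitro 5 of the 16 rose and 2 fell at Day 13, and in vivo 4 rose and 0 fell, with medians of 0.01 and 0.07. Over all probe sets 3.55% rose and 3.96% fell in vitro, and 1.7% rose and 2.09% fell in vivo. ASCL2, a regulator of trophoblast fate, rose by 4.58 ± 0.25 in vitro (SE, adjusted p = 3.58e-05) and by 3.84 ± 0.25 in vivo (adjusted p = 0.000110). ID2, an inhibitor of basic helix-loop-helix factors, rose by 5.49 ± 0.61 in vitro (adjusted p = 0.00132) and by 2.75 ± 0.61 in vivo (adjusted p = 0.0464). ETS2, a factor of the Ets family studied on ruminant trophoblast promoters, rose by 3.83 ± 0.74 in vivo (adjusted p = 0.0257).

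ELF5, a trophoblast Ets factor, was at least 4.21-fold higher at Day 13 in vitro (adjusted p = 0.00604), and CITED1, a transcriptional co-regulator, fell by 4.21 in vitro (adjusted p = 0.000890). TFAP2A and ELF3 also rose in vitro, and TEAD4, needed for the first trophoblast cells in mouse, fell. ETS1 was at least 1.68-fold higher at Day 13 in vivo and lower in vitro than in vivo at Day 13 (adjusted p = 0.0148 and 0.0324).

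Most measured relatives in the wider protein families did not exceed background on at least 3 arrays, though several did so on fewer. Of 9 listed aspartic proteinases outside the PAG genes, 5 were measured and 1, CTSD (cathepsin D, a lysosomal protease), exceeded background on at least 3 arrays. Of 14 listed Kunitz domain and related inhibitors, 7 were measured and 3 exceeded background on at least 3 arrays, among them SPINT2 and TFPI. Of 9 listed Ly-6 family genes 4 were measured and only LY6E exceeded it on at least 3 arrays. On fewer arrays, PLAUR read 3.74 and 5.90 on Day 13 in vivo replicates 1 and 2, and LY6G6C 3.93 on Day 7 in vitro replicate 3. SPINT1 read 3.56 on Day 7 in vivo replicate 3 and 4.16 on Day 13 in vivo replicate 3. TFPI2 read 3.43 on Day 13 in vitro replicate 1 and 3.57 on Day 13 in vivo replicate 1. None of these 16 measured genes was called by limma in any of the 5 comparisons, and 3 (Day 13 against Day 7 in vitro), 2 (in vivo), 1 (origin at Day 13), 0 and 0 had an unadjusted p below 0.05. Over all probe sets 7.51% were called between the days in vitro and 3.79% in vivo. For origin 1.2% were called at Day 13 and 0.208% at Day 7, and 0.4% for the difference of the day effect. With 16 genes, 0 calls is near those shares and does not set the relatives apart. CTSD differed between Day 13 and Day 7 by -0.57 ± 0.76 in vitro and 0.11 ± 0.76 in vivo (SE), SPINT2 by -0.33 ± 0.92 and 0.50 ± 0.92, and LY6E by -0.61 ± 0.22 and 0.09 ± 0.22, in each case in vitro before in vivo and with adjusted p of at least 0.154. The intervals around these values are wide for SPINT2 and CTSD, so modest changes were not detectable with 3 arrays a group.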

How the data were processed

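RNA from 12 pools of bovine embryos was hybridized to Affymetrix arrays, with 75 ng of total RNA and 2 cycles of amplification per array, per the labels' protocols. The authors deposited normalized log2 intensities per probe set. RMA, GCRMA and limma are named, without versions, in the submitters' processing notes, which do not say which method made the values. Of 24128 probe sets, 112 controls were left out of the tests. Of the 24016 tested, 13292 carried 1 gene symbol, 86 several and 10638 none, per the platform annotation.

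A model of 4 group means was fitted with limma 3.58.1 in R 4.3.3 (lmFit, eBayes without trend; 8 residual and 0.379 prior degrees of freedom), with 5 contrasts, two-sided tests and Benjamini-Hochberg adjustment over all probe sets. It was tested on simulated data. The files hold no detection calls, and the background was chosen after the data were seen; folds against a group wholly below it are lower bounds, beside which stands the adjusted p from the deposited values. Errors on differences are SE, on levels SD (n = 3). Precision is limited by the number of pools.

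All members were named. Up to 4 called genes per list and contrast with the smallest adjusted p were named beside them, and the 3 genes most correlated with each member above background, of which 1 is not reported here. IFNT2, CTSD, SPINT2, TFPI, LY6E and further called genes (TIMP1, AREG, TFAP2A, ELF3, TEAD4) were named beyond that rule, with their values seen. So were PTI, SPINT1, TFPI2, PLAUR and LY6G6C. The members and lists were chosen with earlier results of these data known. Equal replicate numbers showed no general pairing of arrays: once group means were subtracted, 3 of 18 pairs with a shared number correlated above 0.1. Their median r was -0.06, with a range of -0.65 to 0.43. With 3 arrays a group the deviations constrain each other, so this check cannot exclude pairing. The alternatives were 3 normalizations, a filter on dim probe sets, a trended prior, fits to the compared groups alone, a replicate block, a spike-in or GAPDH covariate, each array left out in turn and, added after the data were seen, values raised to background and 2 arrays left out together.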

Additional observations from a re-analysis of the deposited data

Results flagged for a closer look

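SSLP1 was singled out because its in vitro arrays were all higher than its in vivo arrays at Day 13 and all lower at Day 7. The difference between those opposite differences was 2.84 ± 0.70 (SE) on the log2 scale, and limma gave an adjusted p = 0.187, so it did not pass the test. No member's groups were tested for outlying arrays, since each held only 3.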

How the results depend on the processing

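The rises of PAG8 and of the second TKDP1 probe set passed in both origins under all 23 alternatives. For the difference between origins at Day 13, 1 member (PAG11) passed with arrays centred on their medians or on ribosomal protein genes, or with only probe sets above background. In vivo, 3 members passed at Day 13 against Day 7 with only the groups compared or with the GAPDH covariate, SSLP1 and the first TKDP1 probe set being lost. In vitro, 3 passed with the spike-in covariate, and 4 without both Day 13 in vitro arrays of lowest spike-in level, where PAG11 and the first TKDP1 probe set were lost. The spike-in and GAPDH covariates follow the groups, so these adjustments cannot separate array quality from the differences compared. With 1 array left out at a time, the members called numbered 6 to 7 in vitro (PAG17 joining without Day 7 in vitro replicate 1) and 5 to 6 in vivo (PAG11 joining without Day 13 in vivo replicate 3). They numbered 0 to 4 for origin at Day 13 (4 without Day 13 in vitro replicate 3, and 1, PAG11, without Day 13 in vivo replicate 2), 0 to 1 for origin at Day 7 (PAG17, without Day 7 in vitro replicate 1) and 0 to 2 for the difference of the day effect (PAG8 at 1.97 and the second TKDP1 probe set at 2.19, without Day 13 in vitro replicate 3). The causes were not tested.

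Signs turned for some differences that passed no test as reported; those of the second TKDP1 probe set below did pass without Day 13 in vitro replicate 3. For the first TKDP1 probe set, the Day 13 difference between origins was -0.14 after quantile normalization, -0.28 with the GAPDH covariate and -0.27 without the pair of low spike-in arrays, and -0.21 to 0.17 with 1 array left out at a time. Its Day 7 difference ran from -1.40 to 0.55 and its difference of the day effect from -0.53 to 1.42 with 1 array left out. For the second TKDP1 probe set, the Day 13 difference was -0.54 with the spike-in covariate and -0.51 without the pair of arrays, which also gave -0.15 for the difference of the day effect. For PAG2, the Day 7 difference was -0.15 with ribosomal centring, -0.85 with the GAPDH covariate and -0.21 to 0.76 with 1 array left out, and the difference of the day effect ran from -0.049 (without Day 13 in vivo replicate 3) to 1.54.

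The replicate block, a term for the replicate number, kept 6 members called in vitro and 5 in vivo at Day 13 against Day 7 and 0 in the other comparisons, and changed no call of a member. The number of arrays limits these results, and the level of PAG8, PAG11 and TKDP4 at Day 7 is known only as at or below background.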
